A study of Arabidopsis thaliana with 21 samples.

Results

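The genes described here are the 455 Arabidopsis genes that the study's authors listed as changed when leaf mesophyll protoplasts carried NLP7 together with KIN10 instead of GFP. All rows of that deposited list were used, out of 2945 genes listed anywhere in the series and 2065 listed for protoplasts. The libraries fall into 3 groups of 3, from Col-0 plants grown for 4 weeks under 8 h of light and 16 h of dark: protoplasts given plasmids for NLP7 fused to GFP and for Myc-tagged KIN10 (NLP7 with KIN10), protoplasts given the NLP7 plasmid alone (NLP7), and protoplasts given the GFP plasmid (GFP). One label field names Ler seedlings for these libraries, while the genotype field names Col-0, which is followed here. Plasmid amounts, promoters, the time after transfection and the share of cells that took up DNA are unknown from the labels, and protein was not measured.

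NLP7 is a transcription factor of the NIN-like family that carries the primary response of plants to nitrate, binding and switching on genes of nitrate uptake, assimilation and signalling. KIN10 is a catalytic subunit of SnRK1, the plant kinase of the SNF1 and AMPK family that is active when cellular energy is low and that restrains growth and biosynthesis. Mesophyll protoplasts are leaf cells stripped of their walls that take up plasmids, and they are a common setting for testing both proteins. The study asked how KIN10 alters what NLP7 does.

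Levels are FPKM, the authors' fragments per kilobase of transcript and a fixed number of mapped fragments, given as mean ± SD (n = 3) or as the values of libraries 1, 2 and 3 in that order. Folds are ratios of mean FPKM ± SE. Genes were chosen by the authors for a change of at least 2-fold from GFP in these very libraries, so values against GFP describe the list and are no test of it. Calls between NLP7 with KIN10 and NLP7 come from edgeR's quasi-likelihood test over 1722 protoplast genes with enough counts, with Benjamini-Hochberg adjustment and a threshold of 0.05. Of the 455 genes, 420 entered that test. The comparison uses NLP7 with KIN10 libraries that also chose the genes and is therefore not fully independent of the choice. Depth was 16218352 to 20434685 mapped fragments with NLP7 and KIN10, 17423468 to 19088191 with NLP7, and 16183684 to 18290237 with GFP.

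The transfected genes were checked first. KIN10 (AT3G01090) stood at 407, 287 and 546 FPKM with NLP7 and KIN10, at 26.2, 27.4 and 30.1 FPKM with NLP7, and at 32.4, 33.1 and 31.6 FPKM with GFP. Its level was thus high in all 3 libraries that received its plasmid and at the same order in both other groups. NLP7 (AT4G24020) stood at 280.2, 212 and 417 FPKM with NLP7 and KIN10, at 2261, 1536 and 1950 FPKM with NLP7 and at 52.7, 53.7 and 43.2 FPKM with GFP. NLP7 was above GFP in both transfections, yet with KIN10 its transcript was at only 0.158 ± 0.036 of its level with NLP7 alone (log2 difference -2.66 ± 0.21, edgeR adjusted p = 3.65e-08). The files do not separate plasmid transcripts from those of the plant's own genes. In bulk RNA, fewer transfected cells and less transcript per cell cannot be told apart.

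**Figure D1:**
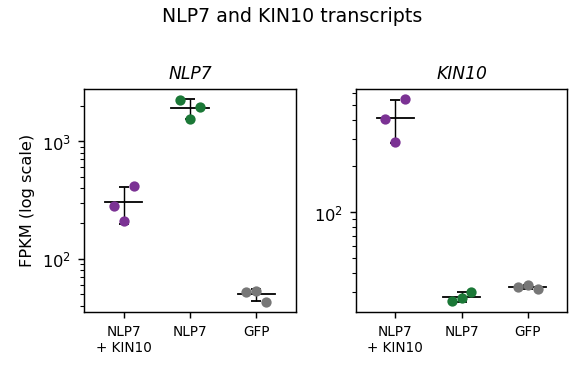
FPKM of NLP7 and KIN10 on log axes in the 3 libraries of each group (points), with the mean (long bar) and SD (whiskers). KIN10 is high in the 3 libraries given its plasmid, and NLP7 is at 303 ± 105 FPKM with KIN10 against 1916 ± 364 FPKM with NLP7 alone.

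Most of the list was raised in both transfections, and far more so without KIN10. The authors' deposited tables list 393 of the 455 genes as higher and 62 as lower than GFP with NLP7 and KIN10. Of the 393, 343 are also listed as higher with NLP7 alone and 50 are not listed there. Of the 62, 28 are also listed as lower with NLP7 alone, 4 are listed as higher and 30 are not listed. Both comparisons with GFP share the GFP libraries, so their values are set side by side here without a measure of their likeness. In the edgeR test 367 of the 420 tested genes were higher and 45 lower than GFP with NLP7 and KIN10, where 31.6 and 5.57% of all 1722 protoplast genes were called, and 362 were higher and 31 lower with NLP7, where 91.3 and 6.97% of all were called. Calls in either direction made up 37.2 and 98.3% of all genes in these comparisons. Libraries did not overlap between NLP7 with KIN10 and GFP for 372 of the 393 higher and all 62 lower genes, where 35.8 and 7.46% of all 2065 protoplast genes were apart in these directions. The choice of the list fixes the counts of NLP7 with KIN10 against GFP.

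Most of these genes stood lower with KIN10 than without it. Against NLP7 alone, edgeR called 326 of the 420 genes lower and 22 higher with KIN10. Over all protoplast genes tested, 86.4% were called lower and 3.83% higher, and 90.2% either way, so the share of lower calls in the list, 77.6%, is not above that of protoplast genes at large. Among the 343 genes listed as higher in both transfections, 315 were called lower with KIN10, 2 higher and 21 neither, and 5 were not tested. Their median level with KIN10 was 5.49-fold lower than with NLP7 alone (quartiles 3.25 and 8.99), and the median gene kept 15.3% of its NLP7 rise above GFP (quartiles 9.99 and 24.9%). The share kept describes the list only, since its genes were chosen for staying at least 2-fold above GFP in these libraries. Of the 1846 genes listed as higher with NLP7 alone, 347 are among the 455. The median log2 ratio of NLP7 with KIN10 to NLP7 was -2.13 over the list and -1.54 over the 1977 protoplast genes above 0 in both groups. The NLP7 transcript itself was lower by a ratio of 0.158 in the same libraries, and its part in these differences was not tested. NLP7 and KIN10 transcripts were both highest in library 3 of NLP7 with KIN10, and so were 350 of the 393 higher genes. That share was not counted over all protoplast genes, so it does not set the list apart. The DESeq2 size factor of protoplast genes, relative to depth, was also highest in library 3 of this group (0.922, against 0.800 and 0.729 in libraries 1 and 2). All 455 genes together took 0.546, 0.464 and 0.822% of mapped fragments in libraries 1, 2 and 3 of NLP7 with KIN10, against 2.92, 2.21 and 2.56% with NLP7 and 0.167 to 0.175% with GFP.

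**Figure D2:**
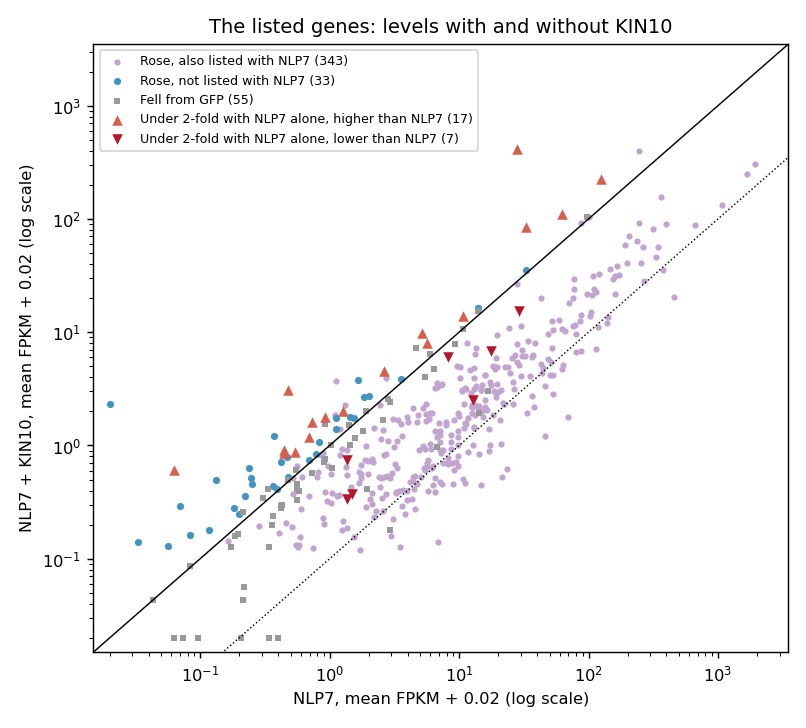
Mean FPKM of the 455 genes with NLP7 and KIN10 (vertical) against NLP7 alone (horizontal), both on log axes after adding 0.02. The solid line marks equal levels and the dotted line a level 10-fold lower with KIN10, and most of the 343 genes raised in both transfections lie between them.

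The strongest rises were of genes that protoplasts with GFP hardly expressed. QWRF7 (AT4G25190), of a family that includes microtubule-associated proteins, stood at 197, 168 and 376 FPKM with NLP7 and KIN10 and at 1887, 1467 and 1680 FPKM with NLP7, and a single count was found in the 3 GFP libraries together. Its level per mapped fragment was 15344-fold that of GFP with NLP7 and KIN10, with an exact 95% counting interval of 2754 to 606099. AT2G48080, a 2-oxoglutarate-dependent oxygenase gene, had 26.6, 23.4 and 55.1 FPKM with NLP7 and KIN10 and 428, 347 and 355 FPKM with NLP7, again against 1 count with GFP. All 3 NLP7 libraries were well above those with KIN10 for both genes.

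M10 (AT2G41280), a late embryogenesis abundant protein gene, had 50.5, 41.6 and 119 FPKM with NLP7 and KIN10 and 241, 185 and 195 FPKM with NLP7. IGMT3 (AT1G21110), an indole glucosinolate methyltransferase gene whose reads may be shared with its tandem copies, had 65.1, 55.1 and 144 FPKM with NLP7 and KIN10, 766, 564 and 671 FPKM with NLP7, and 0.56, 0.38 and 0.25 FPKM with GFP. The other genes among the 8 largest rises at 5 FPKM or more were AT1G22480 (a cupredoxin gene), SAUR50, AT1G72220 (a RING finger gene) and AGP3, an arabinogalactan protein gene. In 83 of the 455 genes all GFP libraries were at 0. The highest bound among them, computed against 3 counts over the GFP group, was that of ANNAT8 (AT5G12380), an annexin gene, at least 496-fold higher with NLP7 and KIN10 (41.0 ± 21.2 FPKM, against 253 ± 26.2 FPKM with NLP7). The wording covers counting error alone.

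The genes that stood lowest with KIN10 relative to NLP7, among those reaching 5 FPKM, were scpl37, G3Pp2, AT4G28410, AT1G12570, UMAMIT35, CEL3, AT1G64625 and CWLP. CWLP (AT3G22120), a cell wall linker protein gene that an antisense RNA overlaps, had 18.7, 16.1 and 26.2 FPKM with NLP7 and KIN10, 572, 366 and 432 FPKM with NLP7 and 2.56, 2.67 and 2.44 FPKM with GFP (against NLP7 -4.50 ± 0.21, edgeR adjusted p = 1.28e-09). UMAMIT35 (AT1G60050), of a family of amino acid exporters, had at most 2.2 FPKM in each library with NLP7 and KIN10 and 55.8, 40.03 and 42.4 FPKM with NLP7, and was at 0 with GFP. CEL3 (AT1G71380), a cellulase gene, averaged 0.430 ± 0.0458 FPKM with NLP7 and KIN10 and 14.8 ± 3.42 FPKM with NLP7. The groups with and without KIN10 were far apart in these 3 genes.

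Lists of pathway genes, drawn up with earlier results of these data known, were then looked up. Nitrate regulators held 5 of 24 genes in the table, all higher than GFP and all called lower with KIN10 than with NLP7 alone. Over all protoplast genes tested 86.4% were called lower, and 393 of all 455 genes were higher than GFP. These counts therefore do not set the regulators apart. The direction of 2 of the 5 against NLP7, NAC080 and CDF1, turned under TMM and DESeq2 scaling. AT3G25790, annotated as a Myb-like factor, had 25.5, 21.2 and 48.3 FPKM with NLP7 and KIN10, 182, 159 and 178 FPKM with NLP7 and 0.26, 0.28 and 0.19 FPKM with GFP. The groups did not overlap, and the level with KIN10 was 0.183 ± 0.0491 of that with NLP7 (log2 difference -2.45 ± 0.24, edgeR adjusted p = 2.50e-07). HRS1 (AT1G13300), a repressor of the G2-like family that acts in nitrate and phosphate signalling, had 6.45, 7.09 and 9.85 FPKM with NLP7 and KIN10, 29.9, 27.4 and 26.2 FPKM with NLP7 and 0.26, 0.29 and 0.05 FPKM with GFP (against NLP7 -1.85 ± 0.21, edgeR adjusted p = 8.81e-07). LBD38 (AT3G49940), which represses nitrogen-responsive genes, averaged 2.52 ± 0.843, 15.9 ± 2.44 and 0.567 ± 0.229 FPKM in NLP7 with KIN10, NLP7 and GFP. CDF1 (AT5G62430), a Dof factor that delays flowering, averaged 9.40 ± 1.19, 19.6 ± 1.48 and 3.01 ± 0.892 FPKM in the same order, one of the smaller differences between the transfections.

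Genes that assimilate nitrogen or supply reductant for it behaved likewise. ASN2 (AT5G65010), an asparagine synthetase and the only one of 17 assimilation genes in the table, had 18.9, 18.1 and 35.0 FPKM with NLP7 and KIN10, 113, 103 and 114 FPKM with NLP7 and 0.87, 0.85 and 1.45 FPKM with GFP. That is 22.7 ± 6.72-fold above GFP with KIN10 and 104 ± 19.7-fold without it. Of 9 plastid reductant genes 3 were in the table, the glucose-6-phosphate dehydrogenase genes G6PD1 and G6PD3 and the root ferredoxin reductase gene RFNR2. All 3 were called lower by edgeR with KIN10 than with NLP7 (G6PD1 turned under TMM scaling), as were 86.4% of all protoplast genes tested. G6PD3 (AT1G24280) had 7.67, 7.26 and 13.9 FPKM with NLP7 and KIN10, 88.8, 72.8 and 80.1 FPKM with NLP7 and 2.03, 1.96 and 2.18 FPKM with GFP, and the groups did not overlap (against NLP7 -3.07 ± 0.22, edgeR adjusted p = 1.92e-08). IPT3 (AT3G63110), which makes cytokinin in response to nitrate, averaged 0.367 ± 0.184 FPKM with NLP7 and KIN10 and 3.26 ± 0.208 FPKM with NLP7, and was listed at 0 with GFP. None of the 17 genes on the nitrate transport list was in the table, though 3 are in the protoplast tables together. That list is partial. The anion channel gene SLAH2 and the NPF family genes AT1G22550 and AT1G59740 are in the table and were not on it. The authors' log2 fold changes against GFP were 3.89, 6.45 and 3.26 with NLP7 and KIN10, and 8.96, 7.99 and 5.71 with NLP7. For SLAH2 with NLP7 and KIN10 the authors' q-value was 0.254. NLP3 (AT4G38340) was the other NLP gene in the table, at or below 0.41 FPKM in each library with KIN10.

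**Figure D3:**
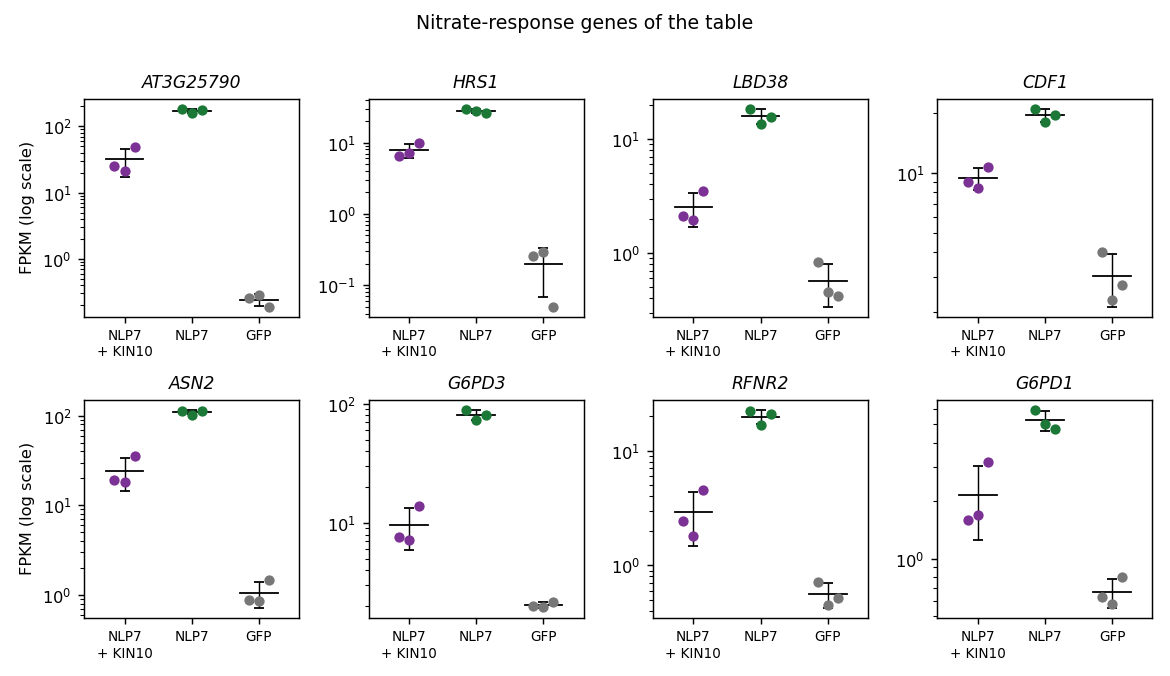
FPKM of 8 nitrate-response genes of the table on log axes, by library (points), with mean (long bar) and SD (whiskers). Each gene stands between its NLP7 and GFP levels when KIN10 is present, and for CDF1 and G6PD1 the direction against NLP7 turns under TMM scaling.

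Auxin, brassinosteroid and growth genes, named after their values were seen, were among the rises. Of 16 small auxin-up RNA (SAUR) genes annotated among the protoplast genes, 8 were in this table, all higher than GFP, as were 393 of all 455 genes. Against NLP7 alone edgeR called 6 lower and 1 higher, where 86.4 and 3.83% of all protoplast genes tested were called. SAUR50 (AT4G34760) had 10.3, 7.89 and 16.7 FPKM with NLP7 and KIN10, 86.2, 69.97 and 80.9 FPKM with NLP7 and a single count with GFP. The auxin transporter PIN7 (AT1G23080) averaged 7.17 ± 3.75, 52.1 ± 7.01 and 0.0833 ± 0.0351 FPKM in NLP7 with KIN10, NLP7 and GFP, and the auxin response repressor IAA7 (AT3G23050) 11.3 ± 5.69, 75.6 ± 7.51 and 0.667 ± 0.136 FPKM. CYP90D1 (AT3G13730), a brassinosteroid synthesis gene, averaged 21.4 ± 10.2, 106 ± 11.5 and 0.187 ± 0.0666 FPKM. All 4 of these genes lay far nearer to GFP with KIN10 than without it on the linear scale, and above GFP in every library.

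A smaller set of genes differed from GFP with NLP7 and KIN10 but by under 2-fold with NLP7 alone. In the authors' tables, 50 of the 393 higher genes were missing from the authors' NLP7 table, but 12 of them were at least 2-fold above GFP with NLP7 in mean FPKM, so a missing entry does not show that a change was absent. A pair of conditions was therefore asked for together: a change from GFP under 2-fold with NLP7 alone, and an edgeR call between NLP7 with KIN10 and NLP7 in the direction of the listed change. In mean FPKM, 63 of the 455 genes were under 2-fold with NLP7 alone, 33 listed as higher and 30 as lower, against 4.6% of the 2065 protoplast genes. Both conditions held for 24 genes, 17 higher and 7 lower, or 5.71% of those tested, against 1.57% of the 1722 protoplast genes. Genes outside the table entered through a change of at least 2-fold with NLP7, so they could hardly meet the first condition and the difference of these shares is not a finding. Of the 24 genes 22 had libraries that did not overlap between NLP7 with KIN10 and NLP7, where 4.36% of all protoplast genes were apart and higher and 83.4% apart and lower, and 12 met both conditions whichever of the 9 libraries was left out. Only 7 met them under all 16 alternative settings and left-out libraries, namely HSP17.4, HSP70, AT1G72416, AT1G72660, AT5G15950, AT5G07610 and KIN10 itself. KIN10 given without NLP7 is not analysed here. The count was 16 without NLP7 library 1, and 17 of the 24 had an authors' q-value under 0.05 against GFP. In 6 of the 24, CDF3 among them, edgeR still called a change under 2-fold between NLP7 and GFP, so under 2-fold does not mean unchanged.

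Of 19 heat shock genes listed, 4 were in the table. Of these, 2 were called higher and 1 lower than with NLP7, where 3.83 and 86.4% of all protoplast genes tested were called. Both higher ones are among the 24. HSP17.4 (AT3G46230), a cytosolic small heat shock protein that keeps unfolding proteins soluble, had 83.3, 68.5 and 103 FPKM with NLP7 and KIN10, 34.9, 27.0 and 37.2 FPKM with NLP7 and 32.4, 30.8 and 37.1 FPKM with GFP. All libraries with KIN10 were above all others, and NLP7 and GFP overlapped. It was 2.57 ± 0.389-fold higher with KIN10 than with NLP7 (log2 difference 1.35 ± 0.19, edgeR adjusted p = 7.56e-06) and at 0.988 ± 0.108 of GFP with NLP7. An annotated antisense RNA overlaps it, and the strand of the reads is not given in the sources used here. HSP70 (AT3G12580), an inducible chaperone, had 109, 104 and 116 FPKM with NLP7 and KIN10, 59.2, 59.3 and 68.9 FPKM with NLP7 and 56.4, 58.7 and 46.8 FPKM with GFP. Again no library with KIN10 overlapped another group (against NLP7 0.81 ± 0.13, edgeR adjusted p = 4.07e-05).

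AT1G72416, a DnaJ-domain cochaperone gene, averaged 1.58 ± 0.407, 0.707 ± 0.114 and 0.607 ± 0.248 FPKM in NLP7 with KIN10, NLP7 and GFP (against NLP7 1.26 ± 0.34, edgeR adjusted p = 0.00300; the authors' q-value against GFP was 0.196). AT3G05345, the other of 2 DnaJ genes in the table, was called lower with KIN10 than with NLP7. All 4 listed heat shock genes of the table were listed as higher than GFP, as were 393 of all 455 genes. HSP21, of the chloroplast, stood at 0.21 to 0.35 FPKM with KIN10 and was too low to be tested. HSP23.6-MITO (AT4G25200), of mitochondria, differed from the others: it averaged 2.89 ± 0.941 FPKM with NLP7 and KIN10, 12.4 ± 2.08 FPKM with NLP7 and 0.340 ± 0.156 FPKM with GFP, and edgeR called it lower with KIN10. HSA32 (0.53 ± 0.26, edgeR adjusted p = 0.0617) and the HSP20-family gene AT1G54050 (0.40 ± 0.25, edgeR adjusted p = 0.129) did not differ from NLP7 past the threshold. HSP70T-2, the other of 2 HSP70-family genes in the table, had no call against NLP7.

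The promoters of both leading heat shock genes, and of the gene with the deepest fall described next, are shown. Heat shock factors and WRKY factors are known to bind short elements in promoters, and their binding to these windows was not tested. Each window holds the 250 bases before the gene start in RefSeq's annotation of TAIR10.1, 5′ to 3′ on the gene's strand, at chr3:16984868-16985117 (minus strand) for HSP17.4, chr3:3993887-3994136 (minus strand) for HSP70 and chr5:2405818-2406067 (plus strand) for AT5G07610. Capitals mark heat shock elements (GAANNTTC, both strands) in the first 2 windows and W boxes (TTGACC, both strands) in the last.
HSP17.4: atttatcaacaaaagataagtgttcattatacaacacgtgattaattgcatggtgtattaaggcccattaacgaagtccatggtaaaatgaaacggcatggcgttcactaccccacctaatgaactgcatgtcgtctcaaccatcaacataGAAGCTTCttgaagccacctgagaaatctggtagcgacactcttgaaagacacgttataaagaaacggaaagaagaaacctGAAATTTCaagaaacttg
HSP70: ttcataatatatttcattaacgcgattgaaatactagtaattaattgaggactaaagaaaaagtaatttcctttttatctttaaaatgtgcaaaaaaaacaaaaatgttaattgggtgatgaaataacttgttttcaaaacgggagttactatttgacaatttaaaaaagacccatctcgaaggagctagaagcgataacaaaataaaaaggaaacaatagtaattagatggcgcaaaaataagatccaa
AT5G07610: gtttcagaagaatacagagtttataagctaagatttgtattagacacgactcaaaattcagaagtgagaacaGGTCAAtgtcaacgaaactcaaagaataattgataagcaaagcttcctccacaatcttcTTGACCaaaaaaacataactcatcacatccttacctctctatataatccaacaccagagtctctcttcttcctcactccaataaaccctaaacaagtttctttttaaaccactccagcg
The HSP17.4 window holds 2 heat shock elements, starting 99 and 18 bases before the gene start, and the HSP70 window holds no match to these letters. Such a match is in 9.55% of the windows of all 27443 protein-coding genes and in 2 of the 17 higher genes that met both conditions. The AT5G07610 window holds 2 W boxes, which are in 12.2% of all windows. A match is a string of letters and not a shown binding site. Other motifs searched for are not marked: the HSP17.4 window also holds 1 G-box (CACGTG), and the AT5G07610 window 1 ACTCAT motif and 1 telo box (AAACCCT). The longer nitrate-responsive element was found in 19 of the 343 windows of genes raised in both transfections, 5.54%, against 3.06% of all windows, and in none of the 17.

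PRR9 (AT2G46790), a morning repressor of the clock and the only one of 11 clock genes in the table, had 3.91, 3.20 and 3.98 FPKM with NLP7 and KIN10, 0.85, 1.13 and 1.30 FPKM with NLP7 and 0.22, 0.39 and 0.48 FPKM with GFP. It was 3.38 ± 0.465-fold higher with KIN10 than with NLP7 (log2 difference 1.76 ± 0.24, edgeR adjusted p = 5.68e-06). It is not in the group of 24, since NLP7 alone already raised it 3.01 ± 0.727-fold, a direction that turns under TMM and DESeq2 scaling. The LNK genes and CDF3 were on no list drawn up for this comparison and were named by their values. LNK4 (AT5G06980) averaged 4.55 ± 0.125, 2.62 ± 0.384 and 1.37 ± 0.456 FPKM in NLP7 with KIN10, NLP7 and GFP (against NLP7 0.79 ± 0.24, edgeR adjusted p = 0.00524), and left the group without GFP library 2 or 3. LNK1 (AT5G64170), a coactivator of clock genes at dawn, had 12.3, 13.9 and 15.5 FPKM with NLP7 and KIN10, 10.9, 10.4 and 10.6 FPKM with NLP7 and 5.75, 7.14 and 4.66 FPKM with GFP. Its call against NLP7 was marginal (0.38 ± 0.17, edgeR adjusted p = 0.0498) and it met both conditions in only 2 of the 9 fits without 1 library. A gene on the opposite strand overlaps it. LNK3 (AT3G12320) stood at 26.4 ± 4.76 FPKM with NLP7 and KIN10 and 27.8 ± 1.28 FPKM with NLP7, above 12.6 ± 1.38 FPKM with GFP. CDF3 (AT3G47500), a Dof factor under clock control, had 6.86, 8.18 and 8.86 FPKM with NLP7 and KIN10, 5.47, 5.56 and 5.76 FPKM with NLP7 and 3.68, 3.25 and 3.37 FPKM with GFP (against NLP7 0.50 ± 0.16, edgeR adjusted p = 0.00882). For both LNK1 and CDF3 all NLP7 libraries already lay above all GFP libraries, by under 2-fold in the means. The edgeR call of CDF3 between NLP7 and GFP turned in direction under TMM and DESeq2 scaling.

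The other higher genes of the 24 ranged from abundant to barely detected. AT5G43064, a short gene annotated as a transmembrane protein, had 211, 265 and 193 FPKM with NLP7 and KIN10, 143, 102 and 131 FPKM with NLP7 and 78.0, 86.0 and 75.7 FPKM with GFP (against NLP7 0.77 ± 0.27, edgeR adjusted p = 0.0133, lost without library 2 of either group). AT1G72660, annotated as a P-loop nucleoside triphosphate hydrolase and overlapped by a gene on the opposite strand, had 3.00, 1.98 and 4.26 FPKM with NLP7 and KIN10, 0.27, 0.74 and 0.37 FPKM with NLP7 and 0.56, 0.32 and 0.69 FPKM with GFP (against NLP7 2.71 ± 0.36, edgeR adjusted p = 5.09e-06). STP14 (AT1G77210), a hexose transporter gene, was 13.7 ± 7.40-fold higher with KIN10 than with NLP7 but only at 0.39 to 0.79 FPKM, and left the group without NLP7 library 1 or 2 or GFP library 1. The remaining members of the 17 were KIN10 itself, AT5G56100 (an oleosin-type gene), AT5G15950 (an adenosylmethionine decarboxylase gene), AT5G21960 (an AP2-domain gene), AT4G22620 (a SAUR gene), AT1G23720, AT1G09400 and AT2G31690, the last 4 averaging under 1.2 FPKM in every group. Of these, KIN10 and AT5G15950 met both conditions in all 9 fits without 1 library, AT5G56100 and AT1G23720 in 7, AT5G21960 in 5, AT4G22620 in 4, and AT1G09400 and AT2G31690 in 3.

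The 28 genes listed as lower in both transfections had a median ratio of 0.997 between NLP7 with KIN10 and NLP7 (range 0.535 to 1.70). Of the 23 tested, edgeR called 2, where 90.2% of all protoplast genes tested were called, 86.4% lower and 3.83% higher. The ratios of the 28 genes depend on the scaling, since TMM and DESeq2 move the median of this contrast up by 1.48 and 1.27 on the log2 scale. GRXS13 (AT1G03850), a glutaredoxin gene of stress responses and the most abundant of them, averaged 105 ± 9.25 FPKM with NLP7 and KIN10, 97.4 ± 2.97 FPKM with NLP7 and 211 ± 26.4 FPKM with GFP. DXPS1 (AT3G21500), annotated to the plastid isoprenoid pathway, had 6.36, 8.04 and 9.33 FPKM with NLP7 and KIN10, 7.83, 9.46 and 10.8 FPKM with NLP7 and 35.6, 22.7 and 34.5 FPKM with GFP. Both transfections overlapped each other and lay below GFP. AT4G30670, annotated as a membrane lipoprotein gene, had 18.6, 12.7 and 14.5 FPKM with NLP7 and KIN10, 13.98, 15.3 and 12.9 FPKM with NLP7 and 35.2, 29.8 and 36.9 FPKM with GFP. AT4G00530 and AT5G17780, also among the 8 largest falls from GFP, are not listed with NLP7 alone and so are outside these 28. Neither was called against NLP7 by edgeR, and the authors' q-value of AT4G00530 against GFP was 0.150. The 2 calls among the 28 were ORS1 (AT2G41230), a growth gene related to ARGOS (0.65 ± 0.20 against NLP7, edgeR adjusted p = 0.00648), and the receptor-like protein gene RLP24 (0.77 ± 0.23, edgeR adjusted p = 0.00486). Both were nearer to GFP with KIN10. ORS1 and RLP40, another of these falls, overlap genes on the opposite strand.

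The 7 lower genes that met both conditions were led by AT5G07610, an F-box protein gene. It had 3.04, 1.68 and 2.80 FPKM with NLP7 and KIN10, 15.6, 11.6 and 11.4 FPKM with NLP7 and 12.2, 13.6 and 14.9 FPKM with GFP. NLP7 and GFP overlapped, and all libraries with KIN10 were far below both (against NLP7 -2.37 ± 0.23, edgeR adjusted p = 2.44e-07). AT2G04070, a MATE efflux transporter gene, had 14.5, 17.7 and 13.9 FPKM with NLP7 and KIN10, 30.7, 31.1 and 25.9 FPKM with NLP7 and 30.1, 34.1 and 29.5 FPKM with GFP (against NLP7 -0.93 ± 0.16, edgeR adjusted p = 4.94e-05). DGR2 (AT5G25460), a cell wall protein gene of the DUF642 family that an antisense RNA overlaps, had 8.00, 6.38 and 6.04 FPKM with NLP7 and KIN10, 19.2, 16.4 and 17.1 FPKM with NLP7 and 13.6, 15.2 and 13.9 FPKM with GFP (against NLP7 -1.37 ± 0.17, edgeR adjusted p = 2.06e-06). BXL1 (AT5G49360), a cell wall xylosidase gene, lay between, at 5.98 ± 0.523, 8.21 ± 0.672 and 12.8 ± 1.61 FPKM in NLP7 with KIN10, NLP7 and GFP. The others were AT1G52245, AT5G60250 and AT1G67600, all at or under 1.53 FPKM on average. Under TMM scaling 6 of the 7 no longer met both conditions, with AT5G07610 as the exception. The direction against NLP7 turned for DGR2, AT2G04070, BXL1 and AT1G67600, and the calls of AT1G52245 and AT5G60250 were lost.

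**Figure D4:**
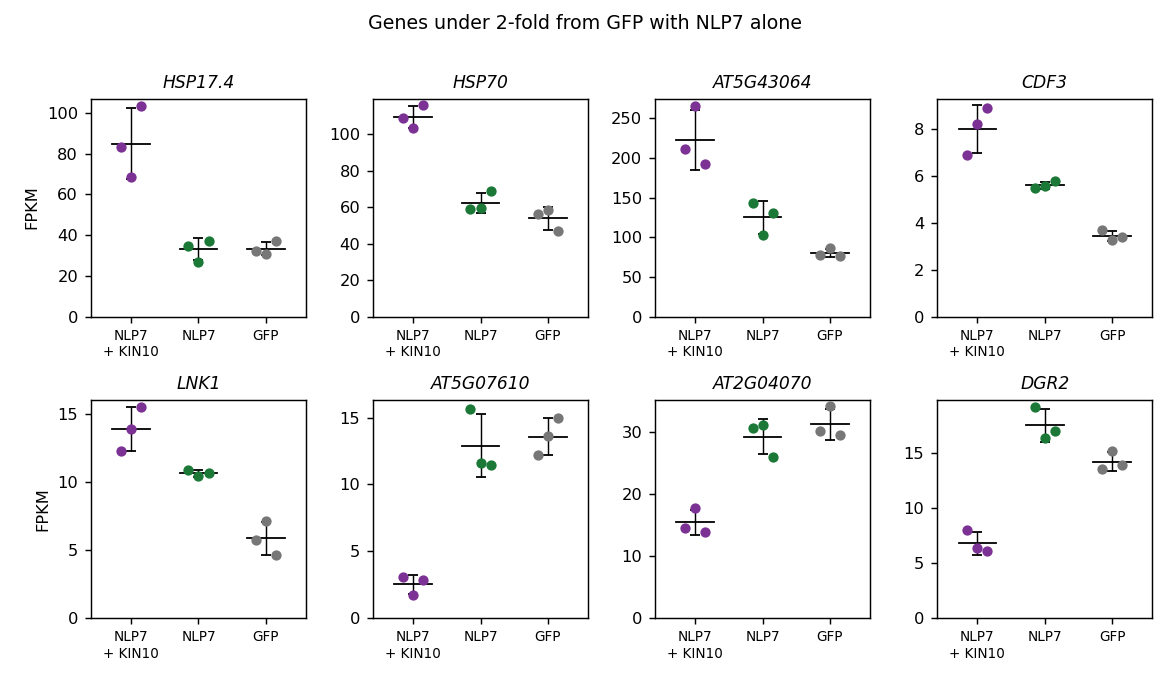
FPKM of 8 genes whose change from GFP was under 2-fold with NLP7 alone, by library (points), with mean (long bar) and SD (whiskers) on linear axes from 0. HSP17.4, HSP70, AT5G43064, CDF3 and LNK1 are highest with KIN10, and AT5G07610, AT2G04070 and DGR2 lowest, the last 2 with a direction against NLP7 that turns under TMM scaling.

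Of the 4 genes that the authors' tables list as lower than GFP with NLP7 and KIN10 and higher with NLP7 alone, 3 are described here. XRI1 (AT5G48720), needed for repair of DNA breaks and for meiosis, had 1.68, 1.49 and 2.56 FPKM with NLP7 and KIN10, 15.9, 12.4 and 14.3 FPKM with NLP7 and 4.85, 5.31 and 4.76 FPKM with GFP. PARP2 (AT4G02390), a poly(ADP-ribose) polymerase gene induced by DNA damage, averaged 2.98 ± 1.14 FPKM with NLP7 and KIN10, 16.8 ± 2.30 FPKM with NLP7 and 7.04 ± 0.595 FPKM with GFP. In both genes the 3 groups were fully apart, with GFP in the middle. The direction of both between NLP7 and GFP turned under TMM and DESeq2 scaling, with log2 differences of -0.30 for XRI1 and -0.54 for PARP2 under TMM, whereas NLP7 with KIN10 stayed below NLP7 under both.

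Against NLP7 the log2 differences were -2.91 ± 0.22 for XRI1 and -2.52 ± 0.23 for PARP2 (edgeR adjusted p = 2.53e-08 and 1.11e-07). AT4G22960, annotated only by a DUF544 domain, had 0.16 ± 0.0458, 2.93 ± 0.422 and 0.46 ± 0.229 FPKM in NLP7 with KIN10, NLP7 and GFP, and its adjusted p against GFP in the authors' deposited table was 0.193 with NLP7 and KIN10.

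**Figure D5:**
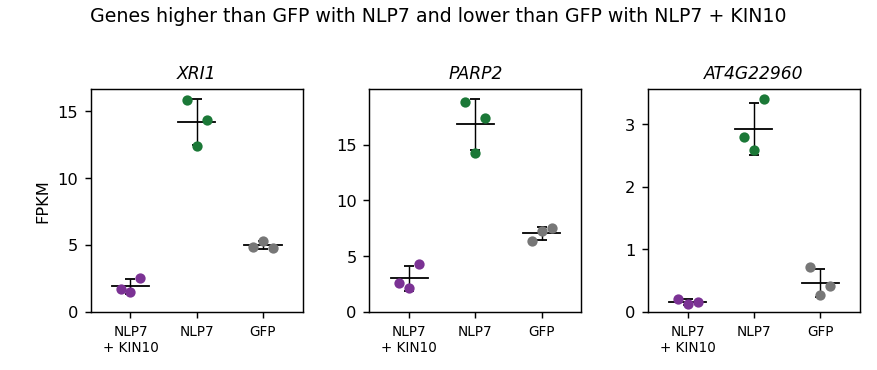
FPKM of XRI1, PARP2 and AT4G22960 by library (points), with mean (long bar) and SD (whiskers) on linear axes from 0. In all 3 genes the libraries with NLP7 and KIN10 are the lowest and those with NLP7 the highest, though NLP7 against GFP turns under TMM and DESeq2 scaling for XRI1 and PARP2.

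RBCS2B (AT5G38420), a Rubisco small subunit gene with near-identical neighbours that may share its reads, had 289.7, 282 and 619 FPKM with NLP7 and KIN10, 288, 209.8 and 234 FPKM with NLP7 and 44.9, 50.4 and 56.0 FPKM with GFP. It was the only one of the 16 genes on the photosynthesis list in the table. RBCS2B was called higher than NLP7 (0.70 ± 0.24, edgeR adjusted p = 0.0142), a call lost without library 3 of NLP7 with KIN10 or library 2 of NLP7. The plastocyanin gene PETE1 (AT1G76100) is in the table and was not on that list. Its authors' log2 fold changes against GFP were 1.92 with NLP7 and KIN10 and 2.80 with NLP7. Of 19 abscisic acid genes, 4 are in the protoplast tables and 3 in this one. RD29A and RD29B were listed as higher than GFP (edgeR called only RD29A) and were called lower than with NLP7. The receptor gene PYL6 was at 0 with KIN10 and at or under 0.16 FPKM elsewhere. Another receptor gene, PYL3 (AT1G73000), was not among these 19 and was listed as higher than GFP in both transfections. Over each group's libraries PYL3 had 21 counts with NLP7 and KIN10, 40 with NLP7 and 1 with GFP. PR5 was the only one of 17 defence genes, at 0.22 to 0.42 FPKM with KIN10 and 0.76 to 0.86 FPKM with GFP. KIN10 was the only one of 9 SnRK1 subunit genes in the table. None of 24 SnRK1 starvation genes, 19 ribosome biogenesis genes, 10 jasmonate genes, 7 senescence and autophagy genes and 14 markers of other leaf cell types was in it.

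Root libraries of the series played no part in choosing the list. They come from KIN10 overexpressing (KIN10ox) and wild-type Ler seedlings, 3 libraries each given KNO3 or, as the control, KCl after nitrogen starvation. Of the 455 genes 85 were listed as changed by nitrate in wild-type Ler roots, 18.7% of the list and 11.04% of that root table. Among the other 1610 protoplast genes the share was 7.14%. Of the 82 shared genes that were higher than GFP with NLP7 and KIN10, 79 were higher with nitrate in Ler, and in KIN10ox roots 70 of 79 were. In the whole root tables, 537 of 770 genes were higher with nitrate in Ler and 440 of 862 in KIN10ox. Directions were not counted for the other shared protoplast genes. The authors' deposited log2 fold changes with nitrate for AT2G48080 were 4.32 in KIN10ox and 4.17 in Ler, for ANNAT8 5.73 and 4.84, and for UMAMIT35 3.42 and 3.88. Those of ANNAT8 rest on levels near the floor. It averaged 0.573 ± 0.315 FPKM with nitrate and 0 FPKM without it in KIN10ox, and 1.21 ± 0.311 and 0.0467 ± 0.0808 FPKM in Ler. RBCS2B, higher with NLP7 and KIN10, was lower with nitrate in KIN10ox roots. Its libraries without nitrate were uneven there, at 9.41, 3.35 and 26.97 FPKM, against 0, 0 and 0.15 FPKM with nitrate. Only 2 of the 24 genes that met both conditions were in a root table, AT1G72416 in both and AT1G23720 in that of KIN10ox. AT1G72416 averaged 57.9 ± 18.3 FPKM with nitrate and 16.5 ± 5.15 FPKM without it in KIN10ox roots, and 82.1 ± 16.9 FPKM with nitrate and 17.1 ± 2.73 FPKM without it in Ler roots. Lists and root values share the genome annotation but no library.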

How the data were processed

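RNA sequencing of 9 protoplast libraries, 3 per group, was used, with groups taken from the labels. Per the submitters' processing notes, HISAT and Bowtie2 were the aligners and TAIR10 was the genome. No source used here states tool versions, strandedness or how fragments were counted. The deposited tables hold only genes the authors selected, by a 2-fold change per the labels' protocols, with FPKM, TPM and expected counts, per the file headers. A 2-fold change in mean FPKM alone does not give the list of 455. Another 163 protoplast genes were at least 2-fold from GFP with NLP7 and KIN10, 15 of them at 1 FPKM or more in the higher group. Only 3 of the 455 had an authors' p-value over 0.05. The counts were not whole in 3.3% of the 455 genes. For each comparison the authors deposited log2 fold changes, p-values and q-values. Per the labels' description these came from NOISeq, while the file headers name DESeq2. The table holds 62 genes that were lower and 393 that were higher, and 310 of the 455 had an authors' q-value under 0.05. Values of the 12 root libraries were used as deposited. Another 18 columns, named for KIN10 alone and matching no listed sample, are not analysed here.

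Library sizes were recovered from expected counts and FPKM of genes with 1 annotated transcript and at least 200 counts. Expected counts were rounded and tested with edgeR 4.0.16 in R 4.3.3 on 1722 of 2065 genes kept by filterByExpr, with all 3 groups in 1 fit, recovered library sizes and no further scaling, and tested on simulated data. TMM and DESeq2 1.42.0 scaling, filters, fewer groups or genes, a replicate block and leaving out each library were alternatives. The authors' scaling over all genes was added after the data were seen. Bounds for groups at 0 assume 3 counts in the whole group. A library's 3 counts equal 0.147 to 0.185 CPM, and intervals and floors cover counting error only. The labels call the 3 libraries of a group biological replicates. Where they share a protoplast batch, p-values measure only the spread between these samples. Genes named in the text are the transfected genes, the 8 largest changes in each direction against GFP and against NLP7 at 5 FPKM or more, the genes under 2-fold with NLP7 alone that were called against NLP7, those with opposite directions, and members of 17 pathway lists. Others were named after their values were seen. The genes and lists were chosen with earlier results of these data known. Of the 455 genes, 451 have the same start and end in RefSeq's TAIR10.1 annotation, and 121 overlap another annotated gene. A gene of the table is not reported here by name.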

Additional observations from a re-analysis of the deposited data

How the results depend on the processing

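TMM and DESeq2 scaling, computed on selected and mostly raised genes, moved the median log2 difference of all tested genes by 1.48 and 1.27 for NLP7 with KIN10 against NLP7, by -0.34 and -0.38 for NLP7 with KIN10 against GFP, and by -1.83 and -1.66 for NLP7 against GFP. The authors' scaling over all genes, chosen after seeing the data, moved these by 0.05, -0.001 and -0.05. Under TMM and DESeq2 scaling, genes of the table called higher than NLP7 numbered 91 and 74 (22 in the fit reported) and those called lower than GFP with NLP7 numbered 74 and 68 (31 reported). Of 348 calls against NLP7, 47 and 29 changed direction, and none of 412 against GFP with NLP7 and KIN10 did. With only the 2 groups of the comparison in the fit, calls of NLP7 with KIN10 against GFP fell to 310 (267 higher, 43 lower), against 412 reported (367 higher, 45 lower). The log2 difference to NLP7 turned to 0.14 under TMM for DGR2 and 0.16 for G6PD1, and under TMM and DESeq2 to 1.02 and 0.82 for BXL1, 0.57 and 0.36 for AT2G04070, 0.36 and 0.15 for NAC080, and 0.41 and 0.21 for CDF1. Of the 24 genes under 2-fold with NLP7 alone and called against NLP7, 18 were shared with 30 found under TMM and 19 with 31 under DESeq2. Without a test, 61 genes were at least 2-fold from GFP with NLP7 and KIN10 and under 2-fold with NLP7. They numbered 17 after adding 1 FPKM, 40 among genes of 1 FPKM or more in a group, 27 after dividing FPKM by DESeq2 size factors, and 48 to 59 without 1 library. Without 1 library, calls against NLP7 ranged from 335 to 352 (15 to 24 higher, 320 to 333 lower), calls against GFP from 370 to 414 with NLP7 and KIN10 (330 to 371 higher, 36 to 47 lower) and from 381 to 399 with NLP7 (356 to 365 higher, 25 to 34 lower), and the 24 genes from 16 to 25. Replicate numbers do not pair the samples: same-numbered deviations correlated at -0.0456 to 0.158. With the replicate block, 348 genes were called against NLP7, 24 met both conditions (21 of them shared), and the calls of LNK1, AT1G09400 and AT2G31690 were lost. Low counts limit 71 genes, which were under 1 FPKM in all 3 groups, and 35 genes were too low to be tested.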

Other observations

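Genes of DNA repair and the DNA damage response were looked up in a list of 14 genes, XRI1 and PARP2 included, chosen after these values were seen. Of the 11 that are in the protoplast tables, edgeR called all 11 lower with NLP7 and KIN10 than with NLP7 and higher with NLP7 than with GFP, where 86.4 and 91.3% of all protoplast genes tested were called. With NLP7 and KIN10, 9 had a mean below GFP, of which edgeR called 5 lower than GFP, where 5.57% of all protoplast genes tested were. The call of GR1 was marginal (edgeR adjusted p = 0.0489). Because the list was chosen after the values were seen, the difference of these shares is not a finding. BRCA1, PARP1 and AT4G19130 overlapped GFP. Under TMM and DESeq2 scaling the direction of NLP7 against GFP turned for XRI1, PARP2, GR1 and ATRAD17. AT3G27630, a SIAMESE-related cell cycle inhibitor gene, averaged 0.347 FPKM with NLP7 and KIN10, 18.6 FPKM with NLP7 and 1.08 FPKM with GFP (log2 difference to NLP7 -5.68, edgeR adjusted p = 2.50e-09). BRCA1 averaged 0.213, 3.61 and 0.223 FPKM, and TSO2, a ribonucleotide reductase subunit gene, 2.72, 24.1 and 5.39 FPKM in NLP7 with KIN10, NLP7 and GFP. AT1G07500 and SYN2 were the exceptions with a mean above GFP, AT1G07500 at 13.0 FPKM with NLP7 and KIN10, 62.3 FPKM with NLP7 and 5.31 FPKM with GFP.

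Some of the 455 genes were neighbours in the genome. Of them 46, or 10.1%, had another of the 455 as the next protein-coding gene on either side, against 3.15% of the 26988 other protein-coding genes. QWRF7, the most strongly raised gene, and HSP23.6-MITO, the heat shock gene that did not follow HSP17.4, lie 769 bases apart on chromosome 4 and point away from each other. RD29B and RD29A, and the SAUR genes AT2G21200 and AT2G21210, are further pairs, the second of which overlaps and may share reads. Run-on or shared reads between neighbours were not tested.

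Of 43 annotated transcription factor genes in the table, 39 were higher and 4 lower than GFP, where 393 and 62 of all 455 genes were. The calls against NLP7 below are to be set against all protoplast genes tested, of which 86.4% were called lower and 3.83% higher with KIN10. Of 5 Dof genes among the protoplast genes 4 were in the table, DAG1, DAG2, CDF1 and CDF3, of which edgeR called CDF3 higher and the others lower than with NLP7 (CDF1 turned under TMM and DESeq2 scaling). Of 11 late embryogenesis abundant genes 7 were in the table. Of these, edgeR called 3 lower than with NLP7, and AT2G23110 alone was called higher with KIN10 than with NLP7 (3.75 ± 1.31 FPKM, against 1.64 ± 0.507 FPKM).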
